A study of Mus musculus with 20 samples.

Results

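Matrix metalloproteinases (MMPs) and the tissue inhibitors that bind them were followed in the colon of mice with colitis-associated cancer, with and without treatment by PZH (Pien Tze Huang), a formula of traditional Chinese medicine. The set held 10 of the 32991 genes in the tables, namely Mmp2, Mmp3, Mmp8, Mmp9, Mmp10, Mmp12, Mmp13, Mmp14, Timp1 and Timp3. Each gene was taken by its symbol, and its level in a mouse was the sum of the FPKM of its Ensembl transcripts, where FPKM is fragments scaled to transcript length and to all mapped fragments of the mouse. The 10 genes were chosen with their levels in these mice already known, so the values below describe them, and the p-values and counts of members are no independent support for a difference. The colons came from 20 male C57BL/6 mice in 4 groups of 5, and the age was not given in the sources used here. Control mice received double distilled water by gavage for 91 days, and PZH mice received PZH at 250 mg/kg each day over the same days, neither with a carcinogen. AOM/DSS mice received the water gavage, 1 intraperitoneal dose of the carcinogen azoxymethane (AOM) at 12.5 mg/kg and, starting 7 days later, 4 cycles of 2% dextran sodium sulfate (DSS) in the drinking water, each of 5 days with DSS and 2 weeks without. PZH + AOM/DSS mice received the same AOM and DSS together with PZH at 250 mg/kg each day. PZH was given from the day of the AOM dose onward. Every sample was colon tissue by its label, with no sorting of cells stated. How much tumour a sample held was not given in the sources used here. More cells of a type and more RNA per cell therefore cannot be told apart in any value below.

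MMPs are zinc-dependent endopeptidases that cut collagens, laminin, fibronectin and other proteins outside the cell. Most are secreted as inactive proenzymes and are switched on when their propeptide is removed, whereas membrane-type members sit on the cell surface. The tissue inhibitors of metalloproteinases (TIMPs) bind the active enzymes and block them. In the colon, MMPs are known for matrix turnover during inflammation, wound repair and tumour growth. RNA levels say nothing of how much of an enzyme is secreted, active or bound to an inhibitor.

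The 20 tables each listed the same 118434 transcripts, and the values carried an estimated depth of 15.3 to 19.4 M fragments per mouse. Between 12.2% and 14.9% of the summed FPKM lay on transcripts with no gene in these sums, most of them assembled by the authors and given no gene name. A gene can therefore read low in a mouse where its reads went to such a transcript: the epithelial marker Epcam read 0 in each of the 5 Control mice and in 3 of the AOM/DSS mice. The tissue matched its colon label, with 11 colon epithelial markers summing to between 3247 and 9083 FPKM in every mouse. Control mice 17 and 50 stood apart, with 7 squamous epithelial markers summing to 408 and 320 FPKM against a group median of 6.17 FPKM. Each comparison that used Control mice was also run without these 2 mice.

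Of the 10 members, 5 lie in the MMP gene cluster of mouse chromosome 9 (GRCm38). Along the plus strand they come in the order Mmp13 (chr9:7272514-7283331), Mmp12 (chr9:7344381-7369499), Mmp3 (chr9:7445822-7455975), Mmp10 (chr9:7502352-7510240) and Mmp8 (chr9:7558456-7568485). The other members lie apart: Mmp2 on chromosome 8, Mmp9 on chromosome 2, Mmp14 on chromosome 14, Timp1 on X and Timp3 on chromosome 10. Promoter windows from RefSeq (GRCm38.p6), 250 bases before and 50 after a transcript start, were found for 8 of the 10 members, in 9 windows. Both strands were searched for 3 motifs. The AP-1 motif, bound by dimers of the Fos and Jun families, was searched as TGANTCA, which reads the same on both strands. The core motif of ETS factors was searched as AGGAAG. The TATA box, which places the start of transcription, was searched as TATAAA. The AP-1 letters occurred in the windows of 4 members, all in the cluster, and in 7.808% of all 32851 windows. The ETS letters occurred in 7 members and in 35.35% of all windows, and the TATA letters in 5 members and in 13.62% of all windows. Members were counted over all their windows, of which Mmp12 had 2, while the shares are of single windows. The TATA match lay before the start on the plus strand in Mmp3, Mmp10 and Mmp13. Its first base was 7 bases before the start in Mmp3, 29 in Mmp10 and 16 in Mmp13. In Mmp12 it began at base 5 of the transcript, and in Mmp8 it was on the minus strand with its first base 3 bases before the start. The matches to the different motifs shown in the printed sequences did not share bases. Mmp8, the remaining member of the cluster, also rose with AOM/DSS, and its window did not hold the AP-1 letters. Nor did the first of the 2 Mmp12 windows. A link between these letters and the rise was not tested. The 100 bases before the start are shown for the 4 members with the AP-1 letters, on the plus strand and 5′ to 3′, with AP-1 and TATA matches in capitals. They lie at chr9:7272414-7272513 for Mmp13, chr9:7445722-7445821 for Mmp3, chr9:7502242-7502341 for Mmp10 and chr9:7347274-7347373 for Mmp12, the last being the second of its 2 windows.
Mmp13: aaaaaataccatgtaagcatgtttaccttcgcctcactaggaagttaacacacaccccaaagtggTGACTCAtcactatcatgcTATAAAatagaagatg
Mmp3: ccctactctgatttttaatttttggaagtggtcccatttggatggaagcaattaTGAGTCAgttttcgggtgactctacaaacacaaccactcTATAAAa
Mmp10: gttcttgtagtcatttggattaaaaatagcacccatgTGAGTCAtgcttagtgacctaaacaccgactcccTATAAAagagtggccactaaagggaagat
Mmp12: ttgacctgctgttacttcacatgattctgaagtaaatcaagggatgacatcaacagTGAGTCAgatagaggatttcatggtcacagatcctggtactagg

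The first base of the AP-1 match lay 35 bases before the start in Mmp13, 46 in Mmp3, 63 in Mmp10 and 44 in the second Mmp12 window. Within the last 100 bases before the start, 2.731% of all windows held these letters. The same letters were found near the start of 4 MMP genes outside the set, Mmp1a, Mmp1b, Mmp7 and Mmp20, all of which lie in the cluster. A match is a description of letters and not a site at which binding was measured.

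**Figure D1:**
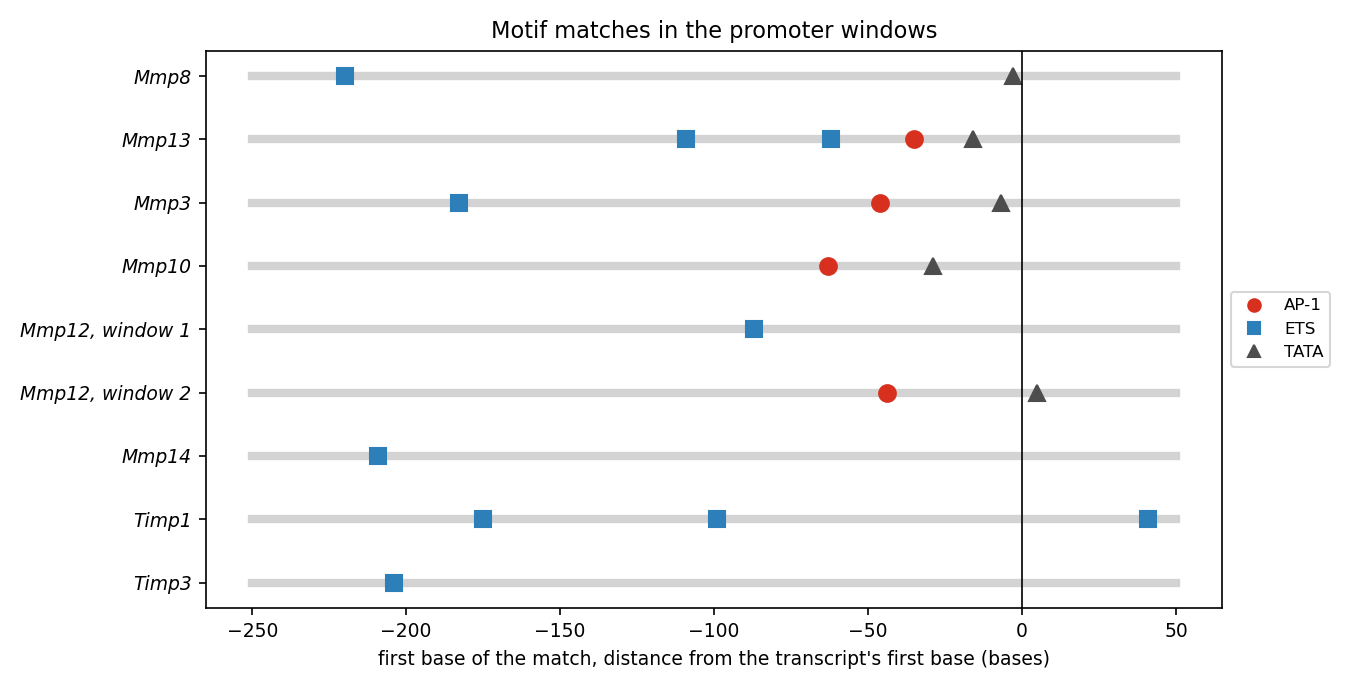
Each grey bar is the promoter window of a member, and the x axis gives the distance in bases of a match's first base from the transcript's first base. The AP-1 match (circle) lies 35 to 63 bases before the start in Mmp13, Mmp3, Mmp10 and the second Mmp12 window.

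Levels below are FPKM, given in the order of mice 17, 37, 41, 48 and 50 for Control, 8, 14, 27, 46 and 53 for PZH, 23, 30, 33, 44 and 52 for AOM/DSS, and 2, 13, 15, 35 and 36 for PZH + AOM/DSS. Differences are between group means of log2(FPKM + 1), which understates the change of genes near 0, with the standard error (SE) from limma. A gene entered a comparison if it reached 0.5 FPKM in at least 5 of its 10 mice, and p-values were adjusted by Benjamini-Hochberg over all genes that entered.

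Between AOM/DSS and Control mice, 9 of the 10 members were higher at an adjusted p under 0.05 and Timp3 was not. Of all 15812 genes tested, 23.6% were called, 16.4% higher and 7.23% lower, and since the members were picked with this contrast known nothing is read from the difference in share. Over all genes 2596 were called higher and 1143 lower, and with median-of-ratios scaling of the mice 1916 and 1603, while the count of members called stayed at 9. The groups did not overlap for the same 9 members, against 13% of all genes. All 10 passed the filter, but Mmp8, Mmp10 and Mmp12 passed through the AOM/DSS mice, where they were high, so these 3 had to differ. The median difference over the members was 2.28 on the log2 scale and that over all genes was 0.09. Where PZH + AOM/DSS was set against AOM/DSS, none of the 10 members passed in limma, 7 were lower at an unadjusted p under 0.05, and all 10 differences were below 0. Over all 15888 genes of that comparison 0.00629% passed after adjustment, 8.21% were lower and 3.51% higher at an unadjusted p under 0.05, and 43.4% had a difference above 0. The count of 7 fell to 3 without PZH + AOM/DSS mouse 2 and to 4 without mouse 13, and was between 5 and 8 without any other single mouse.

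**Figure D2:**
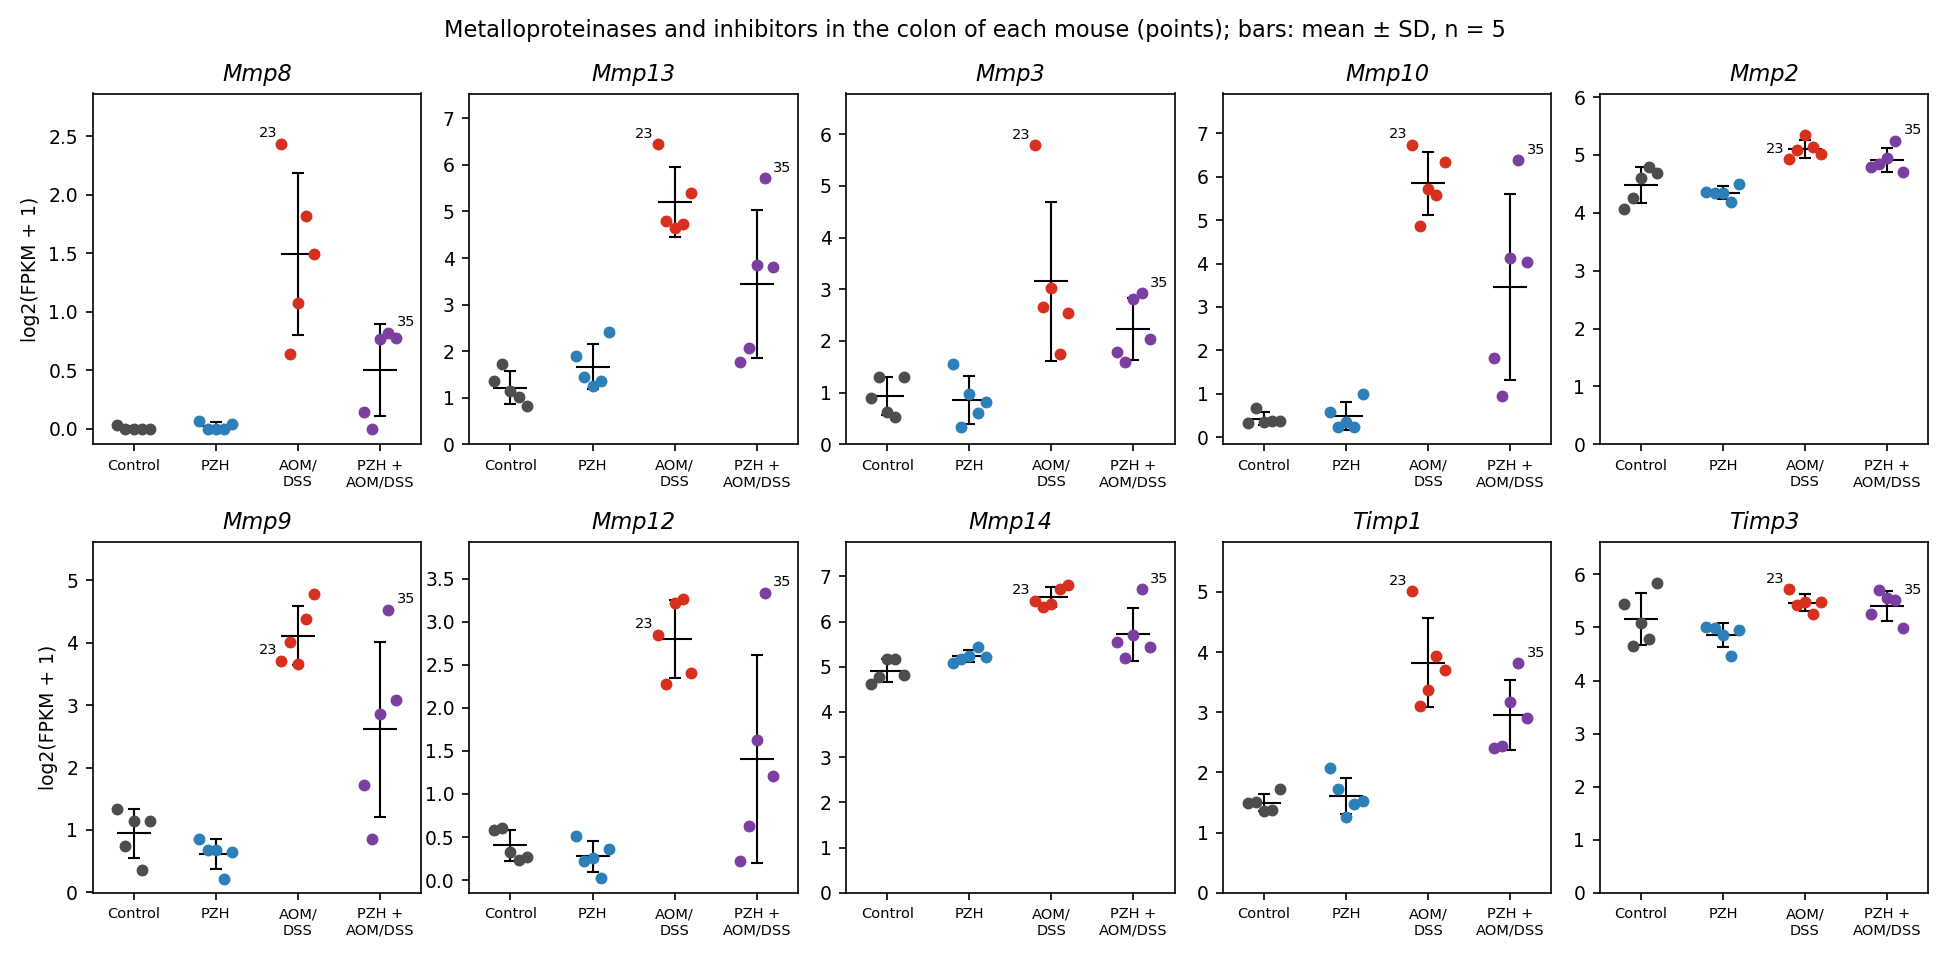
Each panel gives log2(FPKM + 1) of a member on the y axis for every mouse (points) in the 4 groups, with the mean and SD as bars (n = 5). The AOM/DSS mice lie above all Control mice for every member but Timp3, and PZH + AOM/DSS mouse 35 (marked, as is AOM/DSS mouse 23) is the highest of its group for 9 members.

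The collagenases Mmp13 and Mmp8 cut the triple helix of fibrillar collagens. Mmp13 was at 1.58, 2.31, 1.22, 1.03 and 0.773 FPKM in Control mice and at 2.70, 1.71, 1.37, 1.55 and 4.32 FPKM in PZH mice. With AOM/DSS it was at 86.2, 26.8, 24.0, 25.7 and 41.4 FPKM. With PZH + AOM/DSS it was at 2.41, 3.18, 13.4, 51.8 and 12.9 FPKM. Every AOM/DSS mouse was above every Control and PZH mouse, and 4 of the 5 PZH + AOM/DSS mice were below every AOM/DSS mouse while mouse 35 was above all but mouse 23. Mmp13 rose with AOM/DSS by 3.99 ± 0.33 on the log2 scale (SE, n = 5 against 5, adjusted p = 2.4e-05 by limma). The difference between PZH + AOM/DSS and AOM/DSS was -1.77 ± 0.69 (adjusted p = 0.38 by limma).

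Mmp8, known as neutrophil collagenase, was close to the limit of detection without AOM/DSS. It was listed at 0 in 4 Control and 3 PZH mice, and the reads behind it came to an estimated 1.00 fragment over all Control mice and 3 fragments over all PZH mice. The AOM/DSS mice had 4.41, 0.555, 1.10, 2.53 and 1.81 FPKM, an estimated 22.8 to 182 fragments per mouse. Mice given both PZH and AOM/DSS had 0.106, 0, 0.698, 0.767 and 0.716 FPKM. All AOM/DSS mice were above all Control mice, and the 3 upper PZH + AOM/DSS mice overlapped the lowest AOM/DSS mouse. The fitted differences, 1.48 ± 0.28 for AOM/DSS against Control and -0.99 ± 0.32 for PZH + AOM/DSS against AOM/DSS (adjusted p = 0.0035 and 0.36 by limma), depend on the pseudocount and are no bound on the fold. With any single AOM/DSS mouse left out, Mmp8 no longer reached the filter against Control and was not tested there.

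The stromelysins Mmp3 and Mmp10 cut a broad range of matrix proteins and can activate other proMMPs. Mmp10 was at 0.266, 0.604, 0.284, 0.307 and 0.307 FPKM in Control mice and at 0.503, 0.179, 0.285, 0.187 and 0.994 FPKM in PZH mice. Its AOM/DSS levels were 106, 28.1, 51.8, 46.5 and 79.6 FPKM. Its levels with both treatments were 2.54, 0.941, 16.4, 81.9 and 15.4 FPKM. Mmp10 thus went from one of the lowest members in Control to the second highest, by mean, in AOM/DSS, and within the PZH + AOM/DSS group it spread from just above the highest Control mouse to above 4 of the AOM/DSS mice. The rise with AOM/DSS was 5.41 ± 0.30 on the log2 scale, the largest of the 10 (adjusted p = 1.9e-06 by limma). PZH + AOM/DSS differed from AOM/DSS by -2.38 ± 0.88 (adjusted p = 0.37 by limma).

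Mmp3 was at 0.857, 1.47, 0.543, 0.432 and 1.47 FPKM in Control mice and at 1.95, 0.256, 0.955, 0.513 and 0.751 FPKM in PZH mice. In the AOM/DSS group it stood at 54.3, 5.27, 7.16, 2.36 and 4.85 FPKM. Where PZH was added, it stood at 2.45, 2.02, 6.01, 6.59 and 3.10 FPKM. Mouse 23 held most of the Mmp3 in its group, and the other AOM/DSS mice and the PZH + AOM/DSS mice covered nearly the same range. Mmp3 rose with AOM/DSS by 2.22 ± 0.62 (adjusted p = 0.025 by limma), a call that was lost without Control mouse 41 or 48, with both Control mice 17 and 50 left out, and with no filter on low values, where the adjusted p ran from 0.051 to 0.075 by limma. PZH + AOM/DSS differed from AOM/DSS by -0.92 ± 0.65 (adjusted p = 0.59 by limma), and by -0.26 ± 0.35 without mouse 23 (adjusted p = 0.81 by limma). Mmp3 and Mmp10 are near copies in part, and 8.37% of the 50-base stretches of the Mmp10 transcript also occur in the Mmp3 transcript, so a small share of their reads could have been placed on either gene.

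The gelatinases Mmp2 and Mmp9 cut denatured collagen and type IV collagen of basement membranes. Mmp9 was at 1.52, 0.669, 1.21, 0.284 and 1.20 FPKM in Control mice and between 0.166 and 0.810 FPKM in PZH mice. With AOM/DSS it was at 12.1, 15.1, 11.7, 19.8 and 26.6 FPKM. With PZH + AOM/DSS it was at 2.31, 0.808, 6.27, 22.1 and 7.45 FPKM. The AOM/DSS mice again stood clear of Control, and mouse 35 was the single PZH + AOM/DSS mouse inside their range. Mmp9 rose with AOM/DSS by 3.17 ± 0.25 (adjusted p = 2e-05 by limma), and PZH + AOM/DSS differed from AOM/DSS by -1.50 ± 0.58 (adjusted p = 0.38 by limma).

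Mmp2, a gelatinase made mainly by stromal cells, behaved unlike Mmp9 in size. It was at 15.6, 18, 23.4, 26.8 and 24.6 FPKM in Control mice and between 17.3 and 21.6 FPKM in PZH mice. The AOM/DSS mice had 29.4, 32.9, 39.7, 34.3 and 31.3 FPKM. Mice given both PZH and AOM/DSS had 26.8, 27.8, 29.8, 36.9 and 24.9 FPKM. Its lowest AOM/DSS mouse was only just above its highest Control mouse, and the PZH + AOM/DSS mice bridged both groups. The rise with AOM/DSS was 0.62 ± 0.15, the smallest of the 9 (adjusted p = 0.013 by limma), and the difference between PZH + AOM/DSS and AOM/DSS was -0.20 ± 0.12 (adjusted p = 0.55 by limma).

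Mmp12, the macrophage elastase, was between 0.174 and 0.523 FPKM in Control mice and between 0.0131 and 0.429 FPKM in PZH mice. Its AOM/DSS levels were 6.21, 3.86, 8.34, 8.61 and 4.30 FPKM. Its levels with both treatments were 0.167, 0.549, 2.1, 9.12 and 1.31 FPKM. Mouse 2 was below every Control mouse and mouse 35 above every AOM/DSS mouse, so the PZH + AOM/DSS group spanned the whole range of both. Mmp12 rose with AOM/DSS by 2.40 ± 0.21 (adjusted p = 3e-05 by limma), and PZH + AOM/DSS differed from AOM/DSS by -1.40 ± 0.51 (adjusted p = 0.36 by limma).

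Mmp14, the membrane-type enzyme that activates proMmp2 on the cell surface, was the most abundant of the 8 MMPs by mean in all 4 groups. It was at 23.5, 26.3, 35.1, 35.2 and 27.2 FPKM in Control mice and at 32.8, 35.2, 36.5, 42.4 and 36.4 FPKM in PZH mice. In the AOM/DSS group it stood at 87.1, 79.0, 82.9, 104 and 112 FPKM. Where PZH was added, it stood at 46, 35.5, 50.8, 104 and 42.5 FPKM. The AOM/DSS mice were all at or above 79.0 FPKM, and 4 of 5 PZH + AOM/DSS mice lay in the gap between them and the Control mice. Mmp14 rose with AOM/DSS by 1.63 ± 0.14 (adjusted p = 3.3e-05 by limma). PZH + AOM/DSS differed from AOM/DSS by -0.82 ± 0.25, the lowest unadjusted p of the members in that comparison (unadjusted p = 0.0078, adjusted p = 0.36 by limma).

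Timp1 is a secreted inhibitor that is known to be induced in inflammation. It was at 1.82, 1.83, 1.58, 1.61 and 2.29 FPKM in Control mice and between 1.39 and 3.20 FPKM in PZH mice. With AOM/DSS it was at 31.4, 7.62, 9.30, 14.4 and 12.0 FPKM. With PZH + AOM/DSS it was at 4.30, 4.45, 8.03, 13.1 and 6.51 FPKM. All mice given AOM/DSS, with or without PZH, were above all Control mice. Timp1 rose with AOM/DSS by 2.33 ± 0.30 (adjusted p = 0.00044 by limma), and PZH + AOM/DSS differed from AOM/DSS by -0.87 ± 0.37 (adjusted p = 0.41 by limma).

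Timp3, an inhibitor that binds to the matrix, was the only member whose AOM/DSS and Control mice overlapped. It was at 42.6, 24.1, 33, 26.6 and 56.0 FPKM in Control mice, between 20.9 and 31.2 FPKM in PZH mice, between 37.1 and 51.6 FPKM with AOM/DSS, and between 30.6 and 51.3 FPKM with PZH + AOM/DSS. The highest Control mice were 17 and 50, the same 2 that carried squamous markers, and mouse 50 also had the highest summed smooth muscle markers, 5198 FPKM. The difference between AOM/DSS and Control was 0.31 ± 0.21 (adjusted p = 0.32 by limma), and with both of these mice left out it was 0.63 (adjusted p = 0.017 by limma). The part of the 2 mice in the Timp3 result beyond this was not tested. Timp3 lies inside Syn3, a gene of the opposite strand, with 36% of its 50-base stretches in Syn3 transcripts, and the library kit named in the labels was not stated to keep strand; Syn3 itself was between 0.272 and 0.958 FPKM.

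**Figure D3:**
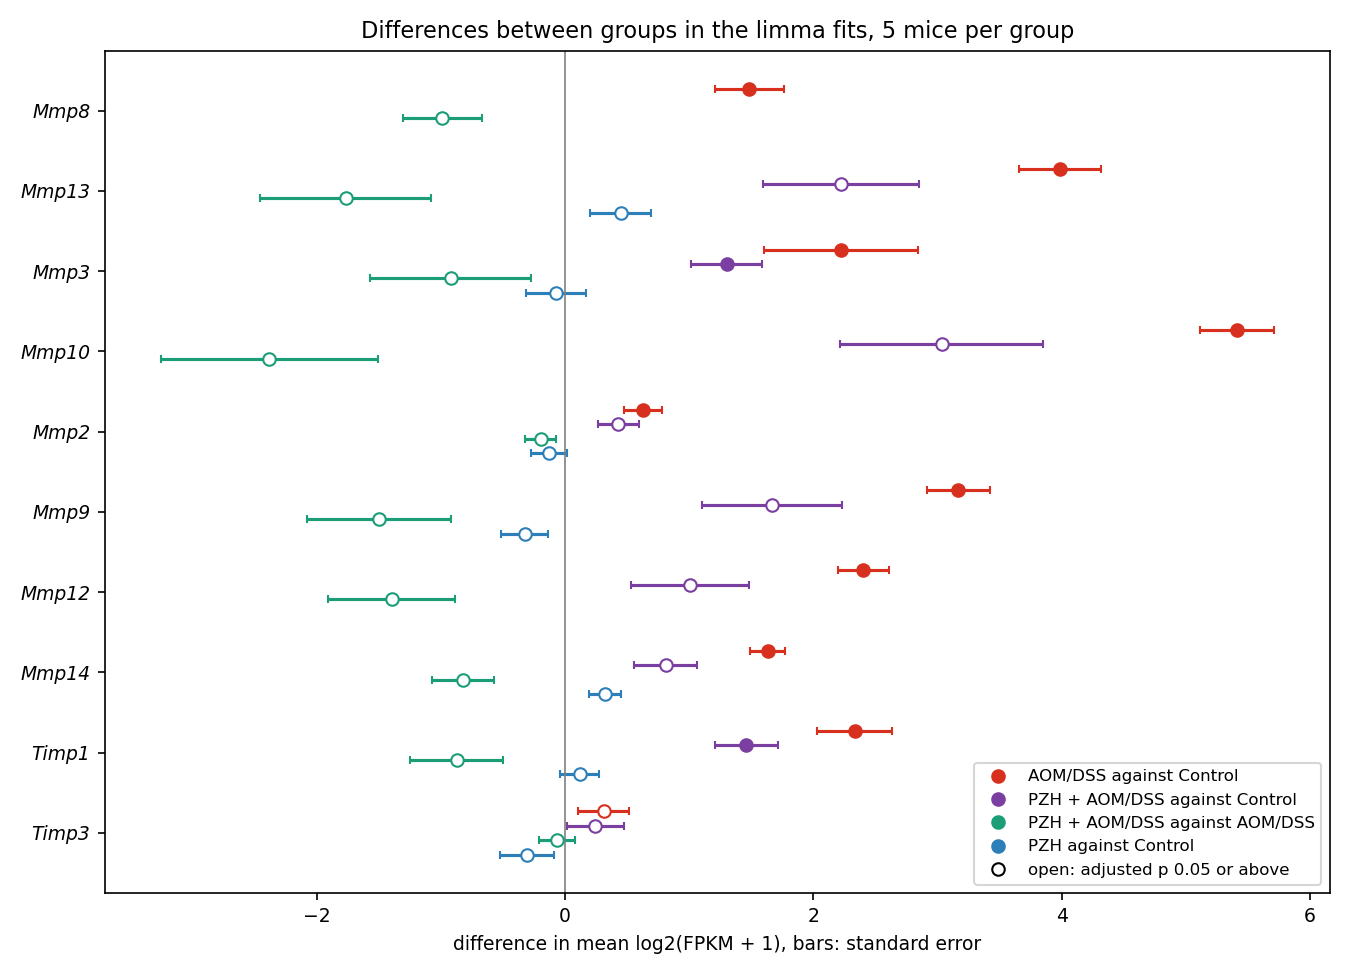
The x axis gives the difference in mean log2(FPKM + 1) for each member in 4 comparisons of 5 against 5 mice, with the standard error as bars and filled points where the adjusted p of the limma fit was under 0.05. The 9 filled AOM/DSS differences run from 0.62 (Mmp2) to 5.41 (Mmp10), and no difference between PZH + AOM/DSS and AOM/DSS is filled.

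PZH by itself gave no call among the members. In PZH against Control mice, 7 members passed the filter and none passed in limma, with Mmp14 the 1 member at an unadjusted p under 0.05. Of all 15506 genes tested there, 0.00645% passed after adjustment and 4.34% were higher at an unadjusted p under 0.05. Mmp14 differed by 0.32 ± 0.13 (adjusted p = 0.54 by limma). The differences of the 7 ran from -0.33 (Mmp9) to 0.45 (Mmp13).

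The PZH + AOM/DSS mice were not back at the Control level for every member. Of the 9 members that passed the filter against Control, Timp1 and Mmp3 were higher after adjustment, against 1.55% of 15616 genes. Timp1 rose by 1.46 ± 0.25 (adjusted p = 0.02 by limma) and Mmp3 by 1.3 ± 0.29 (adjusted p = 0.044 by limma). Besides these, Mmp10, Mmp13 and Mmp14 had no overlap with Control, which held for 4.18% of all genes, at 3.03 ± 0.82, 2.22 ± 0.63 and 0.81 ± 0.26 with adjusted p of 0.077, 0.086 and 0.11 by limma. Mmp10 passed the filter there through the PZH + AOM/DSS mice, where it was high, so nothing is read from its separation. The count of 2 moved between 0 and 5 with the setting and the mice left out. This comparison and that of AOM/DSS against Control share the Control mice.

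The interaction asks whether the PZH difference was itself different with AOM/DSS. It was below 0 for 9 members and 0.24 for Timp3, and none passed in limma, with 6 at an unadjusted p under 0.05. Across all 16936 genes, 0.0118% passed after adjustment, 6.92% were lower at an unadjusted p under 0.05, and 43.5% had an interaction above 0. The lowest unadjusted p was that of Mmp14, 0.00098, at -1.14 ± 0.29 (adjusted p = 0.35 by limma).

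A cutoff without adjustment counts the members differently. At a fold above 2 and an unadjusted p under 0.05, 8 members were higher with AOM/DSS, where 5.85% of all genes were. At the same cutoff 4 members, Mmp9, Mmp10, Mmp12 and Mmp13, were lower in PZH + AOM/DSS than in AOM/DSS mice, where 2.01% of all genes were. This cutoff depends on the pseudocount: with 0.1 FPKM in place of 1 FPKM the members past it were 5, with Mmp8 added, and the genes past it in either direction went from 382 to 695, and from 1219 to 2049 for AOM/DSS against Control. No member had groups that did not overlap in that comparison, where 0.673% of all genes were lower without overlap.

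The PZH + AOM/DSS mice were spread between the levels of Control and AOM/DSS mice. To set the 9 members that rose on 1 scale, each mouse was placed between the Control mean (0%) and the AOM/DSS mean (100%) of log2(FPKM + 1). The median place over the 9 members was 17.1% in mouse 13, 25.7% in mouse 2, 52% in mouse 36, 65.9% in mouse 15 and 111% in mouse 35. Mice 13 and 2 were thus nearest to Control, and mouse 35 was at or past the AOM/DSS mean for most members. The place of mouse 35 ran from 54.8% for Mmp8 to 123% for Mmp2, and that of mouse 13 from -2.85% for Mmp9 to 59.5% for Mmp2. Mouse 13 was below the whole AOM/DSS range for 9 of 10 members, mice 2 and 36 for 8, mouse 15 for 5 and mouse 35 for 0.

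**Figure D4:**
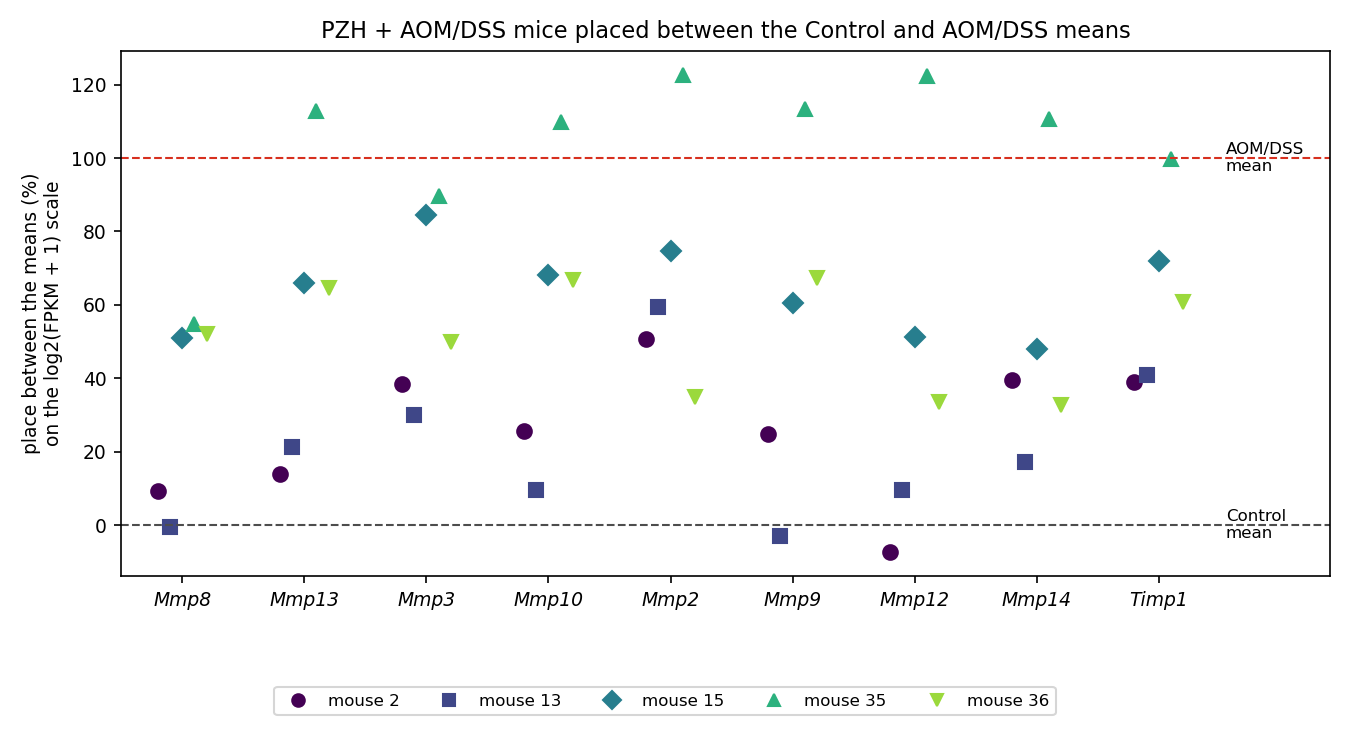
Each symbol is a PZH + AOM/DSS mouse, and the y axis gives its place in percent between the Control mean (0) and the AOM/DSS mean (100) on the log2(FPKM + 1) scale for the 9 members that rose. Mouse 35 sits above the AOM/DSS mean for 6 of the members, while mice 2 and 13 stay at or below 59.5% for all 9.

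Without mouse 35, 5 of the 10 members, Mmp9, Mmp10, Mmp12, Mmp13 and Mmp14, were lower in PZH + AOM/DSS than in AOM/DSS mice after adjustment, with a lowest adjusted p of 0.0068 by limma, and the number of all genes called rose from 1 to 808. The interaction then passed for Mmp10, Mmp12, Mmp13 and Mmp14, with a lowest adjusted p of 0.00091 by limma, while over all genes the calls went from 2 to 476, of which 419 were lower. Nothing in the labels set mouse 35 apart from its group, so the fit with all 5 mice stands as the result. Mouse 35 had the highest summed markers of its group for neutrophils (357.5 FPKM), macrophages (714 FPKM), endothelium (47.7 FPKM) and squamous epithelium (74.9 FPKM), and the lowest for smooth muscle (879 FPKM) and colon epithelium (4144 FPKM). Their part in its member levels was not tested. AOM/DSS mouse 23 was the highest of its group for 6 members and mouse 35 the highest of its group for 9.

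The make-up of the MMP transcripts also differed between groups, given here as a description. The 8 MMPs summed to between 43.9 and 64.2 FPKM in the Control group, 57.5 and 65.0 FPKM with PZH, 192 and 386 FPKM with AOM/DSS, and 70.9 and 313 FPKM with both. Mmp2 and Mmp14 together made up a median of 92.9% of this sum in Control and 94.2% in PZH mice, 54.1% with AOM/DSS and 64.2% with both. Mmp10 and Mmp13 together went the other way, with medians of 2.42%, 3.28%, 33.4% and 23.8% in the same order. The 8 MMPs stood at a median of 1.79 FPKM for each FPKM of Timp1 and Timp3 in the Control group, 2.00 with PZH, 4.65 with AOM/DSS and 2.33 with both. In every AOM/DSS mouse this ratio was 3.88 or more, past every Control and PZH mouse, and among PZH + AOM/DSS mice it ran from 1.27 in mouse 13 to 5.40 in mouse 35. Timp1 made up a median of 4.56% of the 2 inhibitors in Control and 21.5% in AOM/DSS mice. Ratios and shares of FPKM compare RNA per length and not amounts of enzyme and inhibitor. They cover the members only and not all MMPs and inhibitors of the tissue. Left out were Mmp7, at a mean of 372 FPKM in AOM/DSS mice, and Mmp15, at 46.3 FPKM there. Timp2, at a mean of 38.3 FPKM in Control and 42.1 FPKM in AOM/DSS mice, was left out as well.

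**Figure D5:**
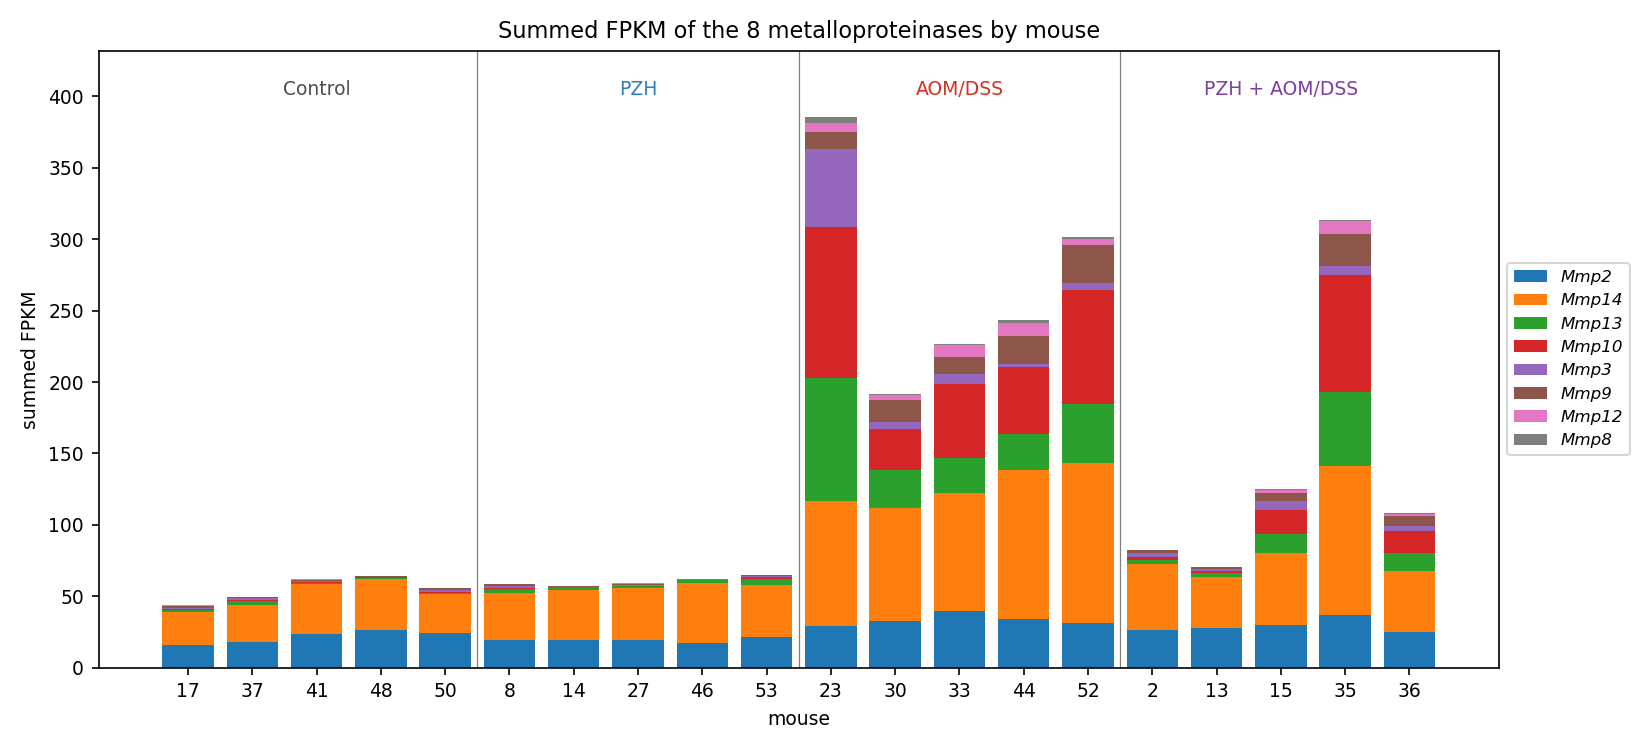
Stacked bars give the FPKM of the 8 MMPs in each of the 20 mice, grouped by treatment, with the sum on the y axis. Mmp2 and Mmp14 fill nearly the whole bar in Control and PZH mice, and the AOM/DSS bars, from 192 to 386 FPKM, add mostly Mmp10, Mmp13 and more Mmp14.

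For most members 1 transcript held nearly all of the signal. Mmp3, Mmp8, Mmp10 and Mmp13 have a single transcript in the tables. The main coding transcript of Mmp2 held a group median of 95.8% to 97.8% of its level, and that of Mmp14 a group median of 86.4% to 95.1%. That of Mmp12 held a median of 82.6% in Control and 94.9% in AOM/DSS mice, the rest being mainly the retained-intron transcript of the gene. Timp1 was split between a pair of coding transcripts in shares that ran from 0% to 100% between single mice, so only its sum was used. With the most abundant transcript in place of the sum, the same 9 members passed in AOM/DSS against Control.

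Among the other MMPs, 15 genes were listed, 14 were in the tables and 7 passed the filter in AOM/DSS against Control. Of the 7, 4 rose and 1 fell, with a median difference of 0.51, and Mmp11 (0.45 ± 0.16) and Mmp23 (0.12 ± 0.17) did not pass. Over all genes 16.4% were called higher and 7.23% lower, and nothing is called particular to these MMPs from the counts. Mmp7, the matrilysin of the cluster and an epithelial enzyme, read 0 in each of the 10 Control and PZH mice and was at 342, 191, 234, 598 and 498 FPKM in AOM/DSS mice (adjusted p = 8.7e-08 by limma). In PZH + AOM/DSS mice Mmp7 was at 11.7, 5.64, 127, 504 and 31.6 FPKM, the same order of mice as for Mmp10, with mouse 35 at the top and mouse 13 at the bottom. Mmp7 passed the filter only through the AOM/DSS mice, so it had to differ. Its level was above that of every member in the AOM/DSS mice, and no fold was formed against a group listed at 0. Mmp28 (epilysin) rose by 1.15 ± 0.14 with AOM/DSS (adjusted p = 0.00035 by limma) and by 1.08 ± 0.18 in PZH + AOM/DSS against Control mice (adjusted p = 0.017 by limma). The membrane-type Mmp15 rose by 0.68 ± 0.16 and Mmp19 by 0.51 ± 0.15, and Mmp17 fell by 0.49 ± 0.12 on the log2 scale (adjusted p = 0.0099, 0.033 and 0.012 by limma).

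The inhibitors outside the set did not rise with AOM/DSS, where 16.4% of all genes were called higher and 7.23% lower. Of 3 that passed the filter, Timp4 fell by 0.50 ± 0.15 and Reck, a membrane-anchored MMP inhibitor, fell by 0.64 ± 0.19 on the log2 scale (adjusted p = 0.04 and 0.03 by limma), while Timp2 differed by 0.15 ± 0.17 (adjusted p = 0.57 by limma). Timp2 was at a mean of 38.3 FPKM in Control and 42.1 FPKM in AOM/DSS mice, close to Timp3. A2m, a plasma inhibitor of many proteases, did not reach the filter. None of these 3 inhibitors and none of the 8 other MMPs tested passed in limma when PZH was added to AOM/DSS. At an unadjusted p under 0.05, 1 inhibitor was higher, against 3.51% of all genes, and 2 MMPs were lower, against 8.21%.

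Genes that act with the MMPs were counted in the same fit of AOM/DSS against Control mice, where 16.4% of all genes were called higher and 7.23% lower. Nothing is called particular to a list from these counts, and some of the shares are near those of all genes. In the plasminogen system, whose product plasmin can activate proMMPs, 4 of 5 tested genes rose, among them Plat (2.66 ± 0.46) and Plaur (1.95 ± 0.16), and none fell. Of 14 tested ADAM and ADAMTS proteases, relatives of the MMPs, 5 rose, among them Adam8 (2.56 ± 0.16) and Adam12 (2.13 ± 0.15), and 1, Adamts15, fell by 1.45 ± 0.23 on the log2 scale. Only 11 of that list passed the filter in PZH against Control mice, and any gene that entered through high AOM/DSS levels had to differ. Of 6 other matrix proteases 2 rose, Htra1 (1.51 ± 0.22) and Ctsk (0.71 ± 0.18). The median differences of these lists were 1.63, 0.27 and 0.34. No gene of the 3 lists passed when PZH was added to AOM/DSS in limma, and 3 of 5, 4 of 15 and 2 of 6 genes were lower at an unadjusted p under 0.05, against 8.21% of all genes.

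Of 8 tested partners and binding proteins of MMPs, 5 rose with AOM/DSS, where 16.4% of all genes were called higher and 7.23% lower. Only 7 of these partners passed the filter in PZH against Control mice, and a gene that entered through high AOM/DSS levels had to differ. Lcn2, listed among these partners, rose by 5.13 ± 0.36, Spp1, an MMP substrate, by 4.39 ± 0.34 and Thbs2 by 1.20 ± 0.22. Of 13 matrix substrates 5 rose and none fell, among them the basement membrane collagens Col4a1 (1.51 ± 0.20) and Col4a2 (1.21 ± 0.22). Of 10 AP-1 and ETS factors 3 rose and 1 fell, with Jun at 1.23 ± 0.20, Ets1 at 0.90 ± 0.20 and Jund lower at -0.42 ± 0.10. Of 9 cytokines that are known to induce MMPs 6 passed the filter and rose, among them Il1b (3.97 ± 0.39), Il11 (2.3 ± 0.31) and Il1a (2.20 ± 0.23). Only 3 of the 9 passed the filter in PZH against Control mice, and Il1a, Il11 and Osm entered through the AOM/DSS mice and so had to differ. The median differences of the 4 lists were 0.88, 0.46, 0.14 and 2.09. None of the genes in these 4 lists passed in limma when PZH was added to AOM/DSS. There 3 of 8, 5 of 13, 2 of 10 and 4 of 8 genes were lower at an unadjusted p under 0.05, against 8.21% of all genes. At the same threshold 2 AP-1 and ETS factors were higher, against 3.51% of all genes. These lists, like the members, were drawn up with earlier results of these data known.

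Markers of other cell types moved with AOM/DSS beside the MMPs. Over all genes 16.4% were called higher and 7.23% lower in that comparison. Nothing is called particular to a cell type from the counts of markers. Of 8 neutrophil markers 5 passed the filter and 4 rose, while the other tested marker was lower at -0.58 and was not called. Only 2 of the 8 passed the filter in PZH against Control mice. Markers that entered through the AOM/DSS mice, where they were high, had to differ. The 8 markers summed to between 81.0 and 399 FPKM in the Control group and 61.1 and 176 FPKM with PZH. They summed to between 239 and 662 FPKM with AOM/DSS, and 151 and 357.5 FPKM with both. S100a9 read 0 in each PZH mouse and Ngp in each mouse given both PZH and AOM/DSS, and no neutrophil marker was at 0 in every AOM/DSS mouse. Of 8 macrophage markers 4 rose, and their sum was between 261 and 534 FPKM in the Control group, 217 and 432 FPKM with PZH, 462 and 624 FPKM with AOM/DSS, and 352 and 714 FPKM with both, with none at 0. Of 6 mast cell markers 5 rose, but only 2 of the 6 passed the filter in PZH against Control mice. Mast cell markers that entered through the AOM/DSS mice had to differ as well. Their sums were between 7.10 and 14.5 FPKM in the Control group, 16.4 and 19.7 FPKM with PZH, 50.7 and 277 FPKM with AOM/DSS, and 33.9 and 289 FPKM with both. All 7 smooth muscle markers fell, from sums between 2256 and 5198 FPKM in Control to between 1001 and 1746 FPKM in AOM/DSS mice, and stood between 1047 and 2425 FPKM in PZH and 879 and 2313 FPKM in PZH + AOM/DSS mice. Of 7 fibroblast markers 1 rose and 1 fell, of 6 endothelial markers 3 rose, of 10 tested colon epithelial markers 5 fell, and of 5 tested squamous markers none passed in limma, with none at an unadjusted p under 0.05. The squamous markers summed to between 4.33 and 408 FPKM in the Control group with a median of 6.17 FPKM, 3.29 and 5.80 FPKM with PZH, 26.7 and 51.2 FPKM with AOM/DSS, and 12.4 and 74.9 FPKM with both, and only Control mice 17 and 50 were above the AOM/DSS range among mice without AOM/DSS. When PZH was added to AOM/DSS no neutrophil marker passed in limma. Of the 5 tested, 4 were lower at an unadjusted p under 0.05, against 8.21% of all genes. The other tested marker was higher, at 0.445, and the median difference of the 5 was -1.81. The part of these cell types in the member levels was not tested.

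The genes whose pattern over the 20 mice was nearest to each member were found by the mean absolute difference between standardised log2(FPKM + 1) values over 14122 genes, where the median gene stood at 1.01 to 1.05 from each member. Outside the members, Lcn2 was the nearest gene to Mmp13 (0.172) and the second to Mmp10 (0.114), after the defensin Defa32 (0.113). Nearest to Mmp9 was Padi4 (0.143), to Mmp12 Gm5483 (0.125) followed by the osteopontin gene Spp1 (0.171), to Mmp14 Sox4 (0.168) and to Mmp8 Gm7861 (0.235). Serpina3m was nearest to Mmp3 (0.294), Pip4k2b to Mmp2 (0.251), Mmp7 to Timp1 (0.219) and Plpp3 to Timp3 (0.387). Among the members themselves, Mmp10 and Mmp13 were nearest to each other (0.160), and the member farthest from any other was Timp3 (0.622). Likeness over these mice follows the 4 groups and mouse 35, and the 20 points share them.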

How the data were processed

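RNA sequencing of colon from 20 mice was used. The authors filtered reads with NGSQC, aligned them to mm10 with HISAT2 and assembled and quantified transcripts with StringTie; each of the 20 deposited tables gives 1 mouse's FPKM per transcript, and no counts. Their differential test needs counts, so limma replaced it. FPKM of Ensembl transcripts was summed per gene by GENCODE M21 (GRCm38), which held 96032 of the 96182 Ensembl transcripts; 22252 assembled transcripts have no gene name. Groups came from the labels. Tissue is labelled colon, although the extraction note names another tissue.

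Genes at 0.5 FPKM or more in at least 5 mice entered limma 3.58.1 (R 4.3.3, trend on) on log2(FPKM + 1), with 10 mice per comparison and 20 for the interaction, Benjamini-Hochberg adjusted over all genes tested. The scripts were tested on simulated data. Depth was estimated from the steps of low FPKM values; only 44.1% to 49.9% of low values fell on whole steps, so fragment numbers are estimates that cover counting error only. The members and gene lists were chosen with earlier results of these data known. The text names all members, every tested gene of the other MMPs and inhibitors, up to 3 called genes without overlap from each other list, and the nearest genes by likeness. Some genes that this rule names are not reported here. Epcam, S100a9, Ngp, Osm, A2m, Syn3, Mmp1a, Mmp1b and Mmp20 were named after their values were seen. Promoter sequences are from RefSeq (GRCm38.p6). Alternatives were another pseudocount, no filter, median-of-ratios scaling, mouse weights, the most abundant transcript, 1 model of all mice and leaving out each mouse; Control mice 17 and 50 were left out together after seeing the data. No label says that mice share a batch.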

Additional observations from a re-analysis of the deposited data

Results flagged for a closer look

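In 9 of the 40 sets of 5 mice tested (10 members in 4 groups), the highest mouse stood apart from the other 4 by more than 0.71 of the group's range in FPKM. In PZH + AOM/DSS mouse 35 this held for Mmp13 (51.8 FPKM), Mmp10 (81.9 FPKM), Mmp12 (9.12 FPKM) and Mmp14 (104 FPKM). In AOM/DSS mouse 23 it held for Mmp13 (86.2 FPKM), Mmp3 (54.3 FPKM) and Timp1 (31.4 FPKM). Among Control mice it held for Mmp10 in mouse 37 (0.604 FPKM) and for Mmp8 in mouse 17 (0.0252 FPKM), the latter about 1 fragment against 0 in the other 4 mice. Values of 1 mouse are not independent across members. The cutoff of 0.71, by which chance flags about 2 of 40 sets, is meant for normally distributed values. FPKM was not shown to be so, and the gaps were not taken on the log2 scale. No excess over chance is therefore read from the 9 flags.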

How the results depend on the processing

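No paired analysis was possible because the groups share no replicate numbers. In AOM/DSS against Control the members called higher stayed at 8 or 9 in every setting run; with 1 mouse left out, all genes called ran from 2516 to 3562 (3739 with all mice). Elsewhere the counts were unstable, and the cause was not tested. In PZH + AOM/DSS against AOM/DSS, 1 gene was called with all mice, 0 with no filter, 2 with mouse weights, 3 with the most abundant transcript, 89 with all 20 mice in 1 model, and 1 to 808 with 1 mouse left out, the highest without mouse 35; members called lower ran from 0 to 5. In PZH against Control, 1 gene was called, 2 with the most abundant transcript, 0 with all 20 mice in 1 model, and 1 to 2 with 1 mouse left out.

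In PZH + AOM/DSS against Control, 378 genes were called, 98 with no filter, 177 with the most abundant transcript, 1503 with all 20 mice in 1 model, 29 without Control mice 17 and 50 (chosen after seeing the data), and 78 to 495 with 1 mouse left out. Members called higher there were 2, 3 with a pseudocount of 0.1 FPKM, 0 with no filter, with the most abundant transcript or without Control mice 17 and 50, 5 with all 20 mice in 1 model, and 0 to 4 with 1 mouse left out. For the interaction 2 genes were called, 130 with mouse weights, 0 with a pseudocount of 0.1 FPKM, no filter, the most abundant transcript or without Control mice 17 and 50, and 0 to 476 with 1 mouse left out, the highest without mouse 35. Members called lower in the interaction were 1 with mouse weights (Mmp14) and 0 to 4 with 1 mouse left out.

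The sign turned for small differences that passed no threshold. For Mmp3 in PZH against Control it became 0.017 without Control mouse 37, 0.018 without Control mouse 50, 0.054 without PZH mouse 14 (lowest -0.25 without 1 mouse) and 0.037 without Control mice 17 and 50, and for Timp3 0.012 without those 2. Timp3 in PZH + AOM/DSS against AOM/DSS became 0.040 without mouse 36, the other end of the range being -0.14. In the interaction Mmp2 became 0.039 without Control mouse 17 (lowest -0.15 without 1 mouse) and 0.0070 without Control mice 17 and 50, and Timp3 became -0.078 without those 2. For AOM/DSS against Control, Mmp23 log2 fold change ran from -4.4e-05 without AOM/DSS mouse 44 to 0.19 without mouse 52. Low FPKM limits Mmp8 most.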
